A study of Rattus norvegicus with 10 samples.

Results

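Foxa1, Foxa2, Foxa3, Hnf4a and Onecut1, the genes of 5 transcription factors that define the hepatocyte, were followed in rat liver after a burn injury. They were taken as every probe set whose single gene symbol in the array's probe table is one of these names, which gave 5 of the 4737 genes named by a single symbol and 8 of the 8799 probe sets: 1 each for Foxa1, Foxa2 and Onecut1, 2 for Foxa3 and 3 for Hnf4a. The series held 10 arrays of total liver RNA in 5 groups of 2: rats 1 h, 4 h, 8 h and 24 h after a burn, and sham rats that served as controls at 0 h. No sham group was taken at the later times. Effects of the burn therefore cannot be told apart from those of elapsed time or time of day. The labels give no strain, sex, age, size of burn or feeding state, and do not say what the sham treatment was. Nor do they say whether 2 arrays of a group stand for 2 animals or for a pool. The p-values below therefore measure only how far such arrays differ, and part of that spread may be technical.

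Foxa1, Foxa2 and Foxa3, first described as HNF3α, HNF3β and HNF3γ, bind DNA through a winged-helix domain and are known as pioneer factors, which can reach their sites in compacted chromatin. Hnf4a is a nuclear receptor that binds DNA as a homodimer and holds many genes of lipoprotein, clotting, bile acid and glucose metabolism active in the adult liver. Onecut1, also called HNF6, is a cut-homeodomain protein known to bind the promoters of Foxa2 and Hnf4a, and it is needed for the development of the bile ducts and the pancreas. These factors are known to regulate one another, and most of them are also expressed in the pancreas.

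The promoters of 3 of the 5 genes, with 4 start sites, were found in the RefSeq table for the build GRCr8, with 2 start sites for Hnf4a that lie 35616 bases apart. Each holds 250 bases before the start and the first 50 bases after it. They were searched on both strands for letters typical of sites of the factors named here: ATTGAT for Onecut factors, CAAAGTCCA for Hnf4, and GTTAAT for the liver factor Hnf1. For Foxa factors the letters were TGTTTAC, its variant TATTTAC with another second base, and the same with G before the last base, namely TGTTTGC besides the further variant TATTTGC. The 3 promoters that held any of them are shown, because they hold the letters of one liver factor before the gene of another. Capitals mark the matches, and lines run 5′ to 3′ on the strand of the gene. The Foxa2 promoter lies at chr3:155927459-155927758 on the minus strand, and the Hnf4a promoters at chr3:172605970-172606269 and chr3:172641586-172641885 on the plus strand.
Foxa2: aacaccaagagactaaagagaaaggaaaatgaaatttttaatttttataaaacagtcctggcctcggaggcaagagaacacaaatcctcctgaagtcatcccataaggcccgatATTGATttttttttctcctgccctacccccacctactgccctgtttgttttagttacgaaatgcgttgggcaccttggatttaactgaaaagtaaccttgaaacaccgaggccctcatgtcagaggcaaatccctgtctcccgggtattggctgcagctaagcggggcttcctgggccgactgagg
Hnf4a, upstream start: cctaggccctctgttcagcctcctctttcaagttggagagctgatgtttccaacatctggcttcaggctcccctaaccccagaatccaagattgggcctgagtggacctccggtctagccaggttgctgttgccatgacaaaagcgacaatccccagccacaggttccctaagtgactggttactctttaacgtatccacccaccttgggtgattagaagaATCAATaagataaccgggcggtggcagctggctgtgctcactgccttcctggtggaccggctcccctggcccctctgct
Hnf4a, downstream start: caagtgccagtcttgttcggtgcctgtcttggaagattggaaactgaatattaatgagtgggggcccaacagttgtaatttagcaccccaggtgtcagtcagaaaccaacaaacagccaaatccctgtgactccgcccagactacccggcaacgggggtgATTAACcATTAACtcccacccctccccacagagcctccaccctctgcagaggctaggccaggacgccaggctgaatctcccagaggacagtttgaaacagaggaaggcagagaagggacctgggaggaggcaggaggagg
In the Foxa2 promoter the Onecut letters stand once, 136 to 131 bases before the start. At the upstream start of Hnf4a they stand once on the opposite strand, 29 to 24 bases before it. The downstream promoter of Hnf4a, the one known to be used in adult liver, holds the Hnf1 letters on the opposite strand at 90 to 85 and 83 to 78 bases before the start. The Foxa3 promoter held none of the letters searched, and no promoter of the set held the Hnf4 letters or the Foxa letters searched. Those Foxa letters all end in C, and forms that end in T were not searched. One such form, TGTTTGT, stands unmarked in the Foxa2 promoter and, on the opposite strand, in the downstream Hnf4a promoter. The absence therefore covers only the listed letters. Among all 33469 promoters in the table, 8.06% held the Onecut letters, 14.2% one of the Foxa letters, 7.45% the Hnf1 letters and 0.391% the Hnf4 letters. A match is a run of letters and not a measured binding site.

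The deposited values were intensities on a linear scale, which the authors had scaled to a common level, and median intensity ran from 100.1 to 131.1 over the arrays. Values under 36.4 were raised to 36.4, put on the log2 scale and tested for the 5285 probe sets with a value over their array's median on 2 arrays or more. Of the 8 probe sets of these factors 7 passed that filter, and the one for Foxa1 did not. Changes are log2 changes against sham from 1 limma model of all groups, with its standard error (SE), and called means an adjusted p over the 5285 of under 0.05. Of the cell type marker lists, that of hepatocytes had the highest summed intensity in every group. Over its 14 genes on the array the sum ran from 647580.5 at 4 h to 933633.1 at 8 h, while the pancreas list reached at most 54079.1, at 1 h. All 14 genes had an array above 36.4 in every group. That is a low bar, which all 20 pancreas marker genes on the array also met in sham livers. Lower RNA per hepatocyte and fewer hepatocytes in the sample cannot be told apart in such tissue RNA.

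RNA known from the exocrine pancreas was present in amounts that differed between the groups, and since most of these factors are also pancreatic genes its values are given here. The 20 pancreas marker genes on the array, over 28 probe sets, summed to 51550.9 and 54079.1 on the 1 h arrays, 4744.3 and 5008.6 on the 4 h arrays, 17161.4 and 17163.6 on the 8 h arrays and 4926.9 and 5485.8 on the 24 h arrays, against 13088 and 13555.5 on the sham arrays. Of the 18 tested by limma, 11 rose at 1 h, 8 fell at 4 h, 4 rose at 8 h and 9 fell at 24 h. The calls at 8 h all ended without either 8 h array. Prss1, a trypsinogen, averaged 4801 at 1 h and 1290 at 8 h but 5.3 at 4 h and 8.35 at 24 h, against 1040 in sham livers, so that at 4 h and 24 h it lay under the floor on both arrays.

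**Figure D1:**
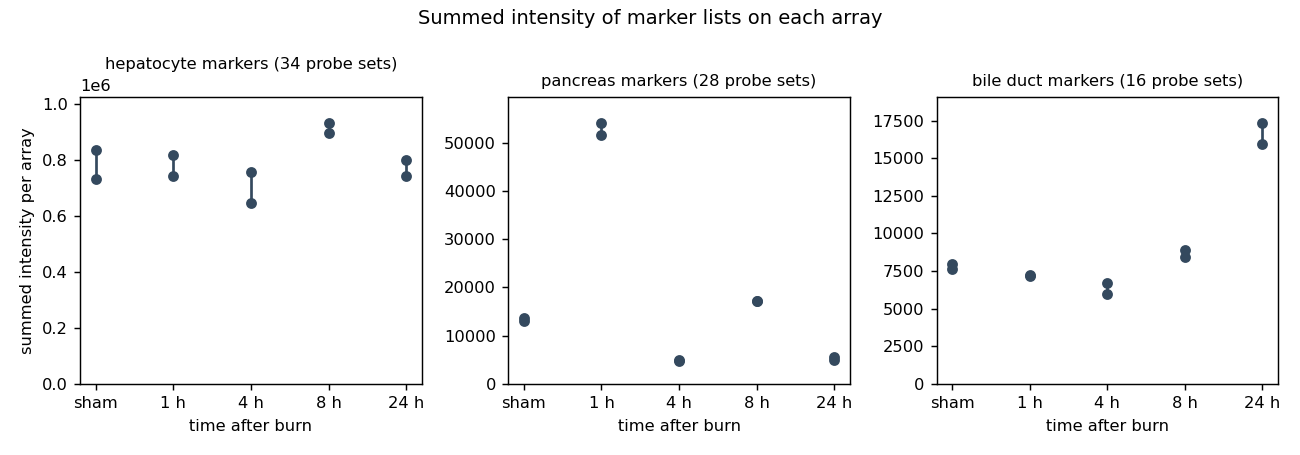
Summed intensity per array of the hepatocyte, pancreas and bile duct marker lists, on linear axes from 0, for sham and for 1, 4, 8 and 24 h after the burn (1 point per array, joined within a group). The pancreas sum is highest at 1 h (51550.9 and 54079.1) and lowest at 4 h and 24 h, while the hepatocyte sum stays between 647580.5 and 933633.1. The bile duct sum is highest at 24 h (15962 and 17350.6).

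Foxa2 fell at 4 h and at 24 h and lay close to sham at 8 h. Its probe set L09647_at read 544.9 and 434 on the sham arrays, 209.5 and 230 at 1 h, 83.5 and 94.3 at 4 h, 381.9 and 418.7 at 8 h, and 121.7 and 161.7 at 24 h. All 8 burn arrays lay below both sham arrays, and no group overlapped another. At 4 h Foxa2 averaged 88.9 ± 7.64 in burn livers and 489 ± 78.4 in sham livers (SD, n = 2 each), which was 5.48-fold lower (log2 change -2.45, SE 0.205, limma adjusted p = 0.000923). At 24 h it averaged 142 ± 28.3 in burn livers, 3.47-fold lower than in sham livers (log2 change -1.79, SE 0.205, limma adjusted p = 0.00295). The 4 h call held under every alternative tried (adjusted p up to 0.041), and the 24 h call ended when only the 24 h and sham arrays were fitted (adjusted p = 0.0677).

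At 1 h the change of Foxa2 was -1.15 (SE 0.205, limma adjusted p = 0.0522), 44.9% of the sham mean, and did not pass. It passed under 2 of 17 alternatives, quantile normalization (limma adjusted p = 0.0238) and the floor at the 50th percentile (0.0183). With only the groups compared it did not pass (0.223). The 8 h arrays averaged 400 ± 26.0, a change of -0.28 against sham with a 95% interval of -0.765 to 0.201. In the order sham, 8 h, 1 h, 24 h, 4 h, only the gap between sham and 8 h had an interval that reached 0. The pancreas markers were high at 1 h, where Foxa2 read 44.9% of sham, and low at 4 h and 24 h, where Foxa2 was lowest; their part in the values of Foxa2 was not tested.

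Foxa3 moved the other way at 4 h and 24 h. The probe set AB017044exon_at read 335.5 and 337 on the sham arrays, 274.6 and 448.2 at 1 h, 709.4 and 704.8 at 4 h, 175 and 174.2 at 8 h, and 1203.1 and 1069.6 at 24 h. The second, AB017044exon_g_at, read 275.2 and 328.2 on the sham arrays, 371.9 and 367.2 at 1 h, 510.8 and 528.2 at 4 h, 237.1 and 221.3 at 8 h, and 842.3 and 691.5 at 24 h. On both, the 4 h and 24 h arrays lay above every sham array and the 8 h arrays below every other array. They were designed on the same database entry and do not count as independent measurements.

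At 24 h Foxa3 rose on both probe sets. AB017044exon_at averaged 1136 ± 94.4 in burn livers and 336 ± 1.06 in sham livers (SD, n = 2 each), 3.37-fold higher (log2 change 1.75, SE 0.235, limma adjusted p = 0.0054). AB017044exon_g_at was 2.54-fold higher, with 767 ± 107 in burn livers and 302 ± 37.5 in sham livers (log2 change 1.34, SE 0.17, limma adjusted p = 0.00461). The call of the second ended with only the 24 h and sham arrays in the fit (adjusted p = 0.0778). Foxa3 is known in mouse liver to support glucose transporter expression during fasting.

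At 4 h the changes of Foxa3 were 1.07 and 0.79 (SE 0.235 and 0.17), and both missed the threshold narrowly, with limma adjusted p of 0.0536 and 0.0517. Both passed when the floor was set at the 50th percentile (0.0269 and 0.0203) and with an intensity trend and robust variance (0.0202 and 0.0391). Of 18 alternatives, AB017044exon_at passed under 6 and AB017044exon_g_at under 3. Neither passed with only the groups compared (limma adjusted p = 0.105 and 0.209). At 8 h the changes were -0.95 and -0.39, with limma adjusted p of 0.084 and 0.274. The order on both was 24 h, 4 h, 1 h, sham, 8 h. The gap between 1 h and sham had an interval that reached 0 on both, and that between sham and 8 h reached 0 on AB017044exon_g_at.

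**Figure D2:**
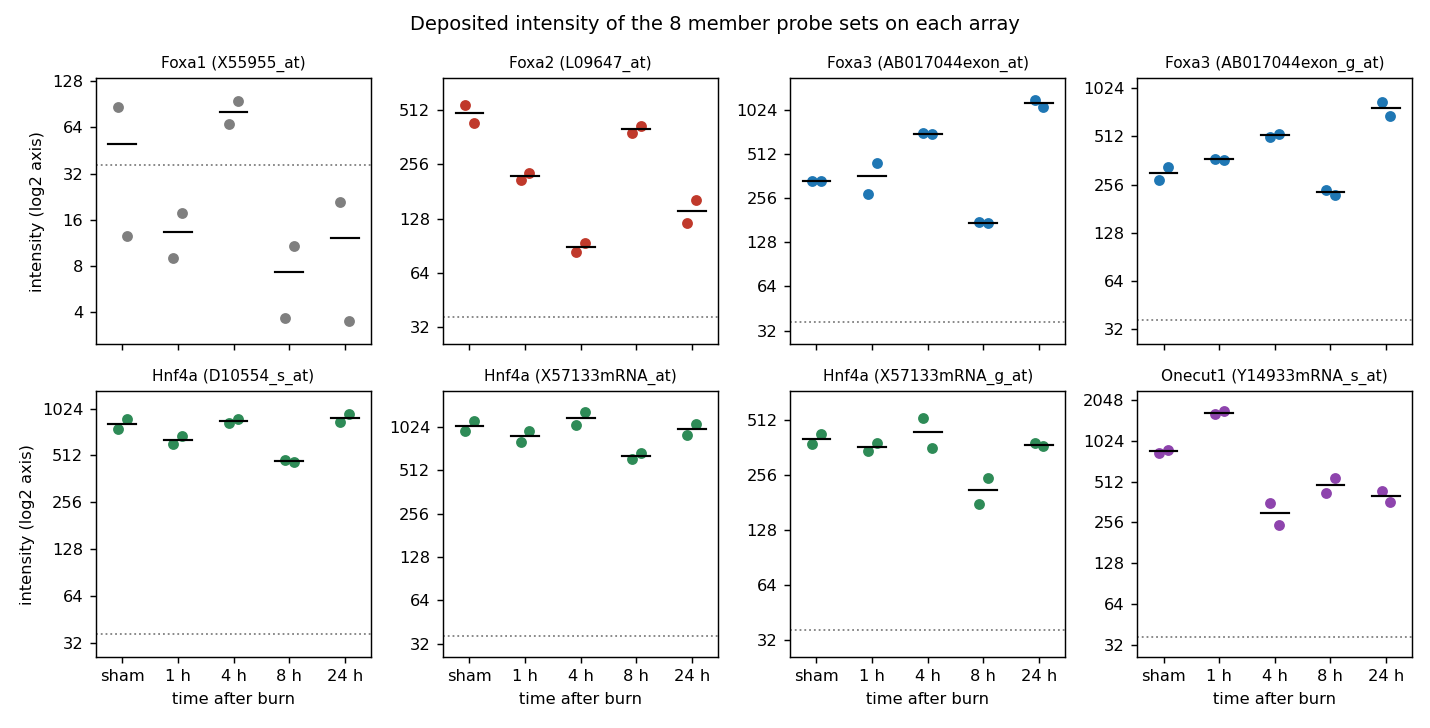
Deposited intensity on a log2 axis of the 8 probe sets of Foxa1, Foxa2, Foxa3, Hnf4a and Onecut1 on each array, for sham and for 1, 4, 8 and 24 h after the burn. Each point is an array, black lines are group means and the dotted line is the floor of 36.4. Foxa2 is lowest at 4 h (83.5 and 94.3), where both Foxa3 probe sets lie above sham, and Onecut1 is highest at 1 h (1613.8 and 1700.9).

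Foxa1 could not be followed. Its probe set X55955_at read 87.5 and 12.5 on the sham arrays, 9.1 and 17.7 at 1 h, 66.9 and 95.3 at 4 h, 3.7 and 10.9 at 8 h, and 20.8 and 3.5 at 24 h. It lay below the median of its array on all 10 arrays and under the floor on 7 of them, and the sham arrays differed 7-fold. With no filter on low values its change at 4 h was 0.50 (SE 0.408, limma adjusted p = 0.757).

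Hnf4a was lowest at 8 h on all 3 probe sets and was not called against sham at any time. D10554_s_at read 755.9 and 884.9 on the sham arrays, 608 and 687.5 at 1 h, 822.3 and 881.2 at 4 h, 482.2 and 466.9 at 8 h, and 839.5 and 943.7 at 24 h. X57133mRNA_at read 968.7 and 1123.6 on the sham arrays, 802.6 and 967.9 at 1 h, 1061.7 and 1294.7 at 4 h, 615.3 and 672.7 at 8 h, and 907.8 and 1076.4 at 24 h. X57133mRNA_g_at, from the same database entry, read 377.9 and 427.8 on the sham arrays, 347.1 and 382 at 1 h, 525.2 and 358.9 at 4 h, 177.5 and 246.2 at 8 h, and 382.2 and 368.2 at 24 h. On each probe set both 8 h arrays lay below all other arrays.

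At 8 h Hnf4a averaged 475 ± 10.8 in burn livers and 820 ± 91.2 in sham livers on D10554_s_at (SD, n = 2 each; log2 change -0.79, SE 0.163, limma adjusted p = 0.051). The change was -0.70 on X57133mRNA_at and -0.94 on X57133mRNA_g_at, with limma adjusted p of 0.11 and 0.0916. D10554_s_at passed at 8 h under 3 of 18 alternatives. These were the floor at the 50th percentile (limma adjusted p = 0.019), no filter (0.0273) and an intensity trend with robust variance (0.0137). It did not pass after quantile normalization (0.0865) or with only the groups compared (0.244). X57133mRNA_at passed under 1 of 18, the intensity trend with robust variance (0.0351), and X57133mRNA_g_at under 0. At 1 h the 3 changes ran from -0.34 to -0.14, at 4 h from 0.06 to 0.17 and at 24 h from -0.10 to 0.12, none of them called. The 95% intervals at 24 h all included 0, so a small shift either way is not excluded. They ran from -0.262 to 0.507 on D10554_s_at, -0.534 to 0.378 on X57133mRNA_at and -0.671 to 0.471 on X57133mRNA_g_at. The probe sets do not say which of the start sites shown above the RNA came from.

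Onecut1 fell at 4 h and at 24 h, after its highest values at 1 h. Y14933mRNA_s_at read 831.5 and 885.2 on the sham arrays, 1613.8 and 1700.9 at 1 h, 355.8 and 243.5 at 4 h, 419.8 and 545.6 at 8 h, and 437.3 and 364 at 24 h. Both 1 h arrays lay above, and all later arrays below, both sham arrays. At 4 h Onecut1 averaged 300 ± 79.4 in burn livers and 858 ± 38.0 in sham livers (SD, n = 2 each), 2.91-fold lower (log2 change -1.54, SE 0.234, limma adjusted p = 0.0137). At 24 h it averaged 401 ± 51.8 in burn livers, 2.15-fold lower than in sham livers (log2 change -1.10, SE 0.234, limma adjusted p = 0.0283).

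The changes of Onecut1 at 1 h and 8 h, 0.95 and -0.84 (SE 0.234 each), did not pass (limma adjusted p = 0.157 and 0.111). The 4 h call was lost on leaving out either sham array or 4 h array 2 (highest adjusted p 0.0806) and with only the groups compared (0.113). The 24 h call ended without any sham, 1 h or 24 h array (adjusted p up to 0.135), without both 1 h arrays (0.0535) and with only the groups compared (0.0863). The gaps between 8 h and 24 h and between 24 h and 4 h had intervals that reached 0.

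Pancreas markers moved with Onecut1, high at 1 h and low at 4 h and 24 h, while at 8 h their sum lay above sham and Onecut1 below it. Their part in these values was not tested. Of 10 tested bile duct markers limma called 0 at 1 h, 4 h or 8 h (0, 3 and 1 at an unadjusted p under 0.05), and Krt18, a keratin gene that hepatocytes also express, rose at 24 h (7018 in burn livers and 2367 in sham livers, 2.96-fold). Krt19, a keratin gene of the bile ducts named after its values were seen, averaged 128.6 at 24 h and 127.2 at 4 h, against 125.2 in sham livers. The summed intensity of the bile duct list was 15962 and 17350.6 on the 24 h arrays, against 7618.9 and 7959.9 on the sham arrays. The median change of the 10 tested markers at 24 h was -0.19, beside -0.044 over all tested probe sets.

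**Figure D3:**
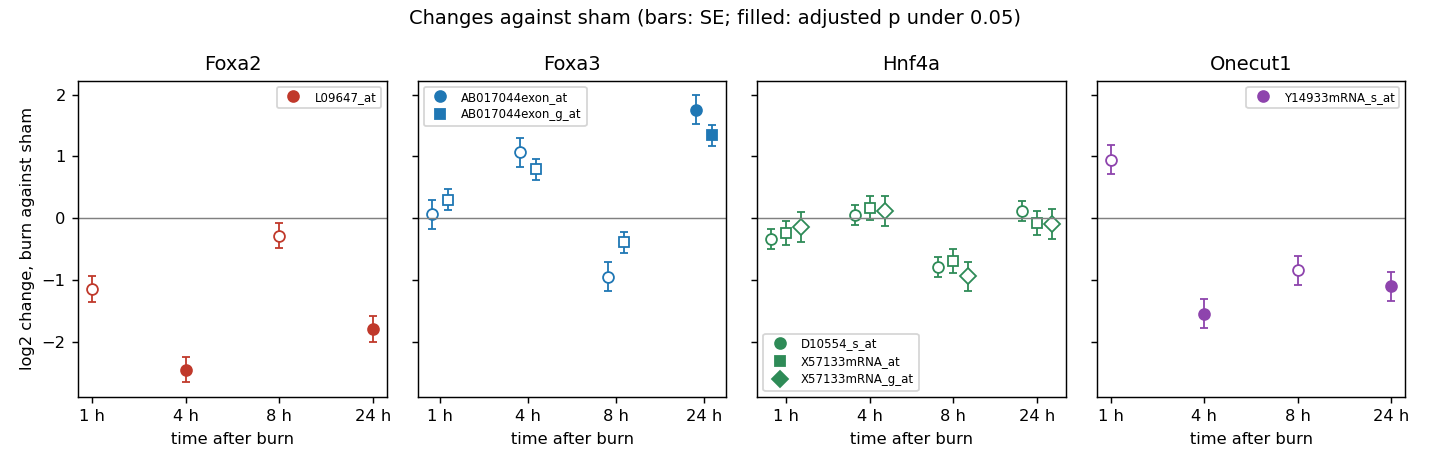
Log2 change against sham, with the SE of the limma model as bars, for the 7 tested probe sets of Foxa2, Foxa3, Hnf4a and Onecut1 at 1, 4, 8 and 24 h after the burn (2 arrays per group). Filled symbols mark an adjusted p under 0.05: Foxa2 and Onecut1 at 4 h and 24 h, below 0, and both Foxa3 probe sets at 24 h, above 0.

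Against sham, limma called 0 of the 7 tested probe sets at 1 h, beside 1.44% of all 5285 probe sets. It called 2 at 4 h (4.35% of all), 0 at 8 h (3.5% of all) and 4 at 24 h (10.3% of all). The 2 at 4 h were both lower, where 1.99% of all probe sets were called lower. Of the 4 at 24 h, from 3 genes, 2 were lower and 2 higher, beside 6.34% and 3.94% of all probe sets. The 2 higher were both of Foxa3 and do not count as separate genes. At an unadjusted p under 0.05 there were 2 at 1 h and 5 at 8 h, beside 12% and 18.6% of all probe sets. At 8 h all 7 had both burn arrays below both sham arrays, which held for 29.6% of all probe sets. Of these 7, 3 were of Hnf4a and 2 of Foxa3, which do not count as separate genes. Their median change, that of Hnf4a on D10554_s_at, was -0.785 beside -0.0996 over all tested probe sets. Of all arrays, 8 h array 1 had the lowest median intensity (100.1) and the lowest share of values above the floor (70.3%). The F test over the 4 burn times called 5 of the 7, from Foxa2, Foxa3, Hnf4a and Onecut1, beside 15.3% of all probe sets. The Hnf4a probe set among them was D10554_s_at (adjusted p = 0.0327), and its call ended without any 1 array other than sham array 1 (adjusted p up to 0.123).

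Successive times were also compared directly. No step of Onecut1 after 4 h was called: its log2 change was 0.70 from 4 h to 8 h and -0.26 from 8 h to 24 h (limma adjusted p = 0.126 and 0.537). From 1 h to 4 h, 2 of 7 probe sets were called, beside 5% of all: Onecut1 was 5.63-fold lower at 4 h than at 1 h (log2 change -2.49, limma adjusted p = 0.00133) and Foxa2 2.47-fold lower (-1.31, 0.0145), where 2.54% of all were called lower. The Foxa2 call ended on leaving out any of the 1 h or 4 h arrays (highest adjusted p 0.0968) and with only these groups fitted (0.0827). From 4 h to 8 h, 6 of 7 probe sets, from 3 genes, were called, beside 8.29% of all. Of these, 1 was higher and 5 lower, beside 3.48% and 4.81%. Foxa2 was 4.51-fold higher at 8 h than at 4 h (limma adjusted p = 0.00146), while Foxa3 was 4.05-fold and 2.27-fold lower on its 2 probe sets (0.00341 and 0.00793). The second of these ended without 8 h array 2 (adjusted p = 0.0503) and with only these groups fitted (0.0768).

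In that step Hnf4a was also lower at 8 h than at 4 h, by 1.79-fold on D10554_s_at, 1.82-fold on X57133mRNA_at and 2.08-fold on X57133mRNA_g_at (limma adjusted p = 0.0246, 0.0395 and 0.0427). The first ended without any 4 h or 8 h array (adjusted p up to 0.106). X57133mRNA_at ended without any single array (up to 0.164), and X57133mRNA_g_at without any single array other than 4 h array 2 (up to 0.174). After quantile normalization neither was called (0.0697 and 0.0517), nor was X57133mRNA_g_at with the replicate number as a block (0.0617). From 8 h to 24 h, 4 of 7, from 3 genes, were called, beside 11.8% of all, with 3 higher and 1 lower beside 5.81% and 5.94%. Foxa3 was 6.5-fold and 3.33-fold higher at 24 h than at 8 h (limma adjusted p = 0.00099 and 0.00141), and Foxa2 was 2.85-fold lower (0.00512, and 0.0602 with only these groups fitted). Hnf4a was 1.88-fold higher on D10554_s_at (0.0144), a call that ended without any 8 h or 24 h array (up to 0.085). The steps share arrays with each other and with the comparisons against sham.

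The genes whose 4 changes against sham were most like those of each factor were found by the root mean square difference of log2 changes, over 5 group means and among all named tested probe sets of other genes. For Foxa2 they were Syt11 (0.206), C5h1orf210 (0.379), Prpsap1 (0.393), Gpam (0.442), the first enzyme of triglyceride synthesis, and Traf2 (0.453). Syt11, a synaptotagmin gene, had changes of -0.82, -2.25, -0.37 and -1.66 at 1, 4, 8 and 24 h. For Foxa3, on AB017044exon_at, they were Plin2 (0.335), a coat protein gene of lipid droplets, Rraga (0.344), a GTPase gene of amino acid sensing, Hgs (0.359), Slc3a2 (0.369), the heavy chain of amino acid transporters, and Eif2b3 (0.374). Plin2 had changes of -0.03, 0.66, -0.42 and 1.75.

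For Onecut1 the nearest were Nrg1 (0.282), Idi1 (0.348), an enzyme of isoprenoid synthesis, N5 (0.367), Erbb3 (0.426), a receptor for neuregulins, and Sorbs2 (0.438). Nrg1, a neuregulin gene, had changes of 0.61, -1.12, -0.69 and -1.16. For Hnf4a, on D10554_s_at, they were Cacna1a (0.101), Irgq (0.102), Frmd6 (0.105), Imp3 (0.107) and Ppid (0.108). Small differences are common among genes that change little, as Hnf4a did. By the F test Nrg1 (limma adjusted p = 0.159), N5, Erbb3 and Sorbs2 were not called. Nor were C5h1orf210, Prpsap1 and Traf2 of the Foxa2 list, Hgs of the Foxa3 list, or any gene of the Hnf4a list. These lists describe shape in 10 arrays and carry no test of likeness.

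Other liver transcription factors were followed as a list of 43 genes, of which 29 were on the array and 25 were tested. At 1 h limma called 0, and 6 had an unadjusted p under 0.05. At 4 h 2 rose and 1 fell, at 8 h 0 rose and 2 fell, and at 24 h 0 rose and 5 fell, with a median change of -0.444 at 24 h beside -0.044 over all tested probe sets. Cebpa, which keeps hepatocytes differentiated, fell 3.9-fold at 24 h (204 in burn livers and 794 in sham livers, log2 change -1.96, SE 0.159, limma adjusted p = 0.000772). Dbp, a clock output factor, was at least 33.4-fold lower at 4 h, where both arrays lay under the floor (adjusted p = 0.000213), and 3.97-fold lower at 8 h (0.0185). Klf9, a zinc finger factor, rose 2.09-fold at 4 h and fell 2.75-fold at 24 h (limma adjusted p = 0.0167 and 0.00325). Its decrease at 8 h (-0.88, adjusted p = 0.0435) ended without any single array.

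Cebpb, a C/EBP factor of the acute phase response, rose 2.03-fold at 4 h (limma adjusted p = 0.0191) and fell at 24 h (-0.70, 0.0472), the second a call that ended without any single array (up to 0.2). The 4 h calls of Cebpb and Klf9 were lost on leaving out any 1 of the sham or 4 h arrays (highest adjusted p 0.104 and 0.0965), and that of Dbp at 8 h without array 2 of either group (highest adjusted p 0.0824). The other factors that fell at 24 h, named after their values were seen, were the nuclear receptors Nr0b2 (SHP, -1.91, adjusted p = 0.00461) and Nr5a2 (LRH-1, -1.28, 0.0325), which act in bile acid synthesis. Nr5a2 was not called without either sham, 1 h or 4 h array or without 24 h array 2 (up to 0.143). Without both 1 h arrays 3 of the list fell at 24 h.

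Genes known from the literature as targets were followed in lists of 27 for Foxa factors (21 tested), 49 for Hnf4a (30 tested) and 18 for Onecut1 (14 tested). The lists overlap, and Tat, Pck1 and Cyp7a1 stand in all 3. Of the 21 Foxa targets 2 rose and 0 fell at 1 h, 4 and 0 at 4 h, 1 and 0 at 8 h, and 2 and 4 at 24 h, with medians of 0.204, -0.0118, 0.289 and -0.118 beside 0.0147, -0.0368, -0.0996 and -0.044 over all tested probe sets. Of the 30 Hnf4a targets 1 rose at 1 h, 1 rose at 4 h, 1 rose and 1 fell at 8 h, and 1 rose and 4 fell at 24 h, with medians of 0.0412, -0.0777, -0.0621 and -0.189. Of the 14 Onecut1 targets 2 rose at 1 h, 2 rose at 4 h, 1 rose at 8 h, and 3 rose and 2 fell at 24 h, with medians of 0.277, 0.018, 0.316 and -0.182.

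Some of these counts rest on single arrays. Of the Hnf4a targets called at 24 h, Cyp3a23-3a1, a drug-metabolizing cytochrome P450 (log2 change 0.69, limma adjusted p = 0.0317), Slc10a1, the bile acid uptake transporter (-0.67, 0.0291), and Gjb1, the gap junction protein connexin 32 (-0.93, 0.0353), lost their calls without either sham array, without either 1 h array and without 24 h array 2. With 1 array left out, 0 to 1 of the Hnf4a targets were called higher and 2 to 3 lower at 24 h. Cyp2a2, a cytochrome P450 among the Onecut1 targets, was called at 1 h (1.24, 0.0125) and at 24 h (0.88, 0.015). Either call ended on leaving out a sham array or an array of its own time (highest adjusted p 0.0903 and 0.0839), which brought the Onecut1 targets called higher at 24 h to 2. These 4 genes were named after their values were seen.

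At 4 h, where Foxa2 was lowest and Foxa3 lay above sham without a call, 4 of the 21 tested Foxa targets rose. Of all probe sets 4.35% were called then, in either direction. Both burn arrays lay above both sham arrays for 6 of the 21 and below them for 6. The median change of the 21 was -0.0118, beside -0.0368 over all tested probe sets. A link of these targets to Foxa2 was not tested. Tdo2, the first enzyme of tryptophan breakdown, rose 3.44-fold (8558 in burn livers and 2484 in sham livers, SE 0.163 on the log2 scale, limma adjusted p = 0.0014). Igfbp1, a binding protein for insulin-like growth factors whose promoter is a classic Foxa site, rose 2.62-fold (adjusted p = 0.00271) and Tat, tyrosine aminotransferase, 2.4-fold (0.00316). The fourth, Cpt1a of fatty acid import into mitochondria, rose 1.79-fold (0.0315, a call lost on leaving out any 1 array outside the 8 h group) and was named after its value was seen. Tat and Igfbp1 also rose at 1 h (2.21-fold and 2.12-fold), calls that ended on leaving out any 1 of the sham or 1 h arrays (highest adjusted p 0.0891 and 0.122).

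At 24 h the targets went both ways. Cyp7a1, the rate-limiting enzyme of bile acid synthesis, was 7.42-fold lower (310 in burn livers and 2299 in sham livers, log2 change -2.89, SE 0.181, limma adjusted p = 0.000291), and its increase at 8 h (0.88, 0.0483) ended without any single array. Igfbp1 was 3.14-fold lower (adjusted p = 0.00108) and Pck1, the enzyme that opens gluconeogenesis, 2.62-fold lower (0.00247), while Tdo2 was 4.41-fold higher (0.000619). Pklr, liver pyruvate kinase and an Hnf4a target, was 3.32-fold lower at 8 h (103 in burn livers and 342 in sham livers, limma adjusted p = 0.0139). Leaving out either sham array, or 8 h array 2, ended that call. Hnf4a was lowest at 8 h but was not called. The median change of its 30 tested targets was then -0.0621, beside -0.0996 over all tested probe sets, and a link to Hnf4a was not tested.

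**Figure D4:**
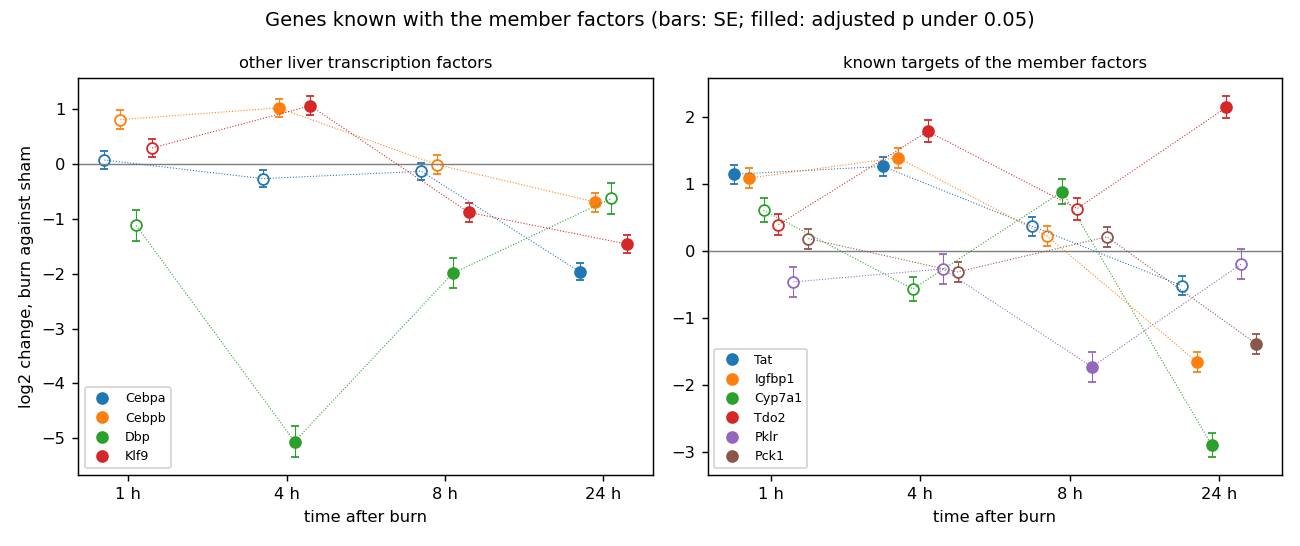
Log2 change against sham, with the SE of the limma model as bars, at 1, 4, 8 and 24 h after the burn for the 4 other liver transcription factors and the 6 known targets that rank among the first 4 of a target list by the F test. Filled symbols mark an adjusted p under 0.05, and dotted lines join the times of a gene. Cebpa falls at 24 h (-1.96), Dbp is lowest at 4 h, Tdo2 is above 0 at all times (2.14 at 24 h) and Cyp7a1 is at -2.89 at 24 h.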

How the data were processed

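Total rat liver RNA, with 2 arrays in each of 5 groups taken from the sample titles, was read on an array of 8799 probe sets. The deposited files hold 1 linear intensity for each probe set, which the authors had already scaled: the 2% trimmed mean of the deposited intensity values was 500.907 to 501.044 on each array. The software was not given in the sources used here. Arrays of a group correlated at 0.9483 to 0.9552, above any pair from different groups.

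Values were floored at 36.4, the median of the 25th percentiles, and fitted on the log2 scale with limma 3.58.1 in R 4.3.3 (5 residual degrees of freedom, moderated two-sided tests, Benjamini-Hochberg adjustment over 5285 probe sets), a step tested on simulated data. Folds are ratios of geometric means after the floor. Symbols came from the probe table, where 7018 probe sets have 1 symbol, 308 several and 1473 none. The number of arrays limits the precision.

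The factors, the gene lists and the tests were chosen with earlier results of these data known. Named genes were all probe sets of the 5 factors, from each list the 4 genes ranked first by the F test, and the 5 nearest genes of each called factor. Alternatives were quantile normalization, floors at the 10th and 50th percentile, fitting without the filter, a robust variance with an intensity trend, a replicate block, fits of only the compared groups, leaving out each array and, added after seeing the data, no 1 h arrays. Same-numbered arrays deviated from their group means with correlations of 0.0111 to 0.17, all positive and above 0.1 in 5 of 10 pairs of groups. The main model did not pair the arrays by number, and the results with the number as a block are given below.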

Additional observations from a re-analysis of the deposited data

Results flagged for a closer look

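The change against sham differed between successive times, by the test of the step itself in the limma model, for 12 combinations of probe set and step. From 1 h to 4 h the log2 change was -1.31 for Foxa2 (limma adjusted p = 0.0145) and -2.49 for Onecut1 (0.00133). From 4 h to 8 h it was 2.17 for Foxa2 (0.00146), and for Foxa3 -2.02 on AB017044exon_at (0.00341) and -1.18 on AB017044exon_g_at (0.00793). In the same step Hnf4a had -0.843 on D10554_s_at (0.0246), -0.866 on X57133mRNA_at (0.0395) and -1.05 on X57133mRNA_g_at (0.0427). From 8 h to 24 h it was -1.51 for Foxa2 (0.00512), 2.7 and 1.74 for Foxa3 (0.00099 and 0.00141), and 0.908 for Hnf4a on D10554_s_at (0.0144). Both arrays of the later time lay on the same side of both arrays of the earlier time in each of these.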

How the results depend on the processing

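Of the calls against sham, those of Foxa2 at 4 h and of Foxa3 on AB017044exon_at at 24 h held under all 18 alternatives, and Onecut1 lost its calls most often (14 of 18 kept at 4 h, 10 of 18 at 24 h). Quantile normalization called 1 of the 7 probe sets at 1 h (Foxa2) and 3 at 4 h, where Foxa3 on AB017044exon_at was added (0.039). It called 3 between 1 h and 4 h, with the same probe set added (0.0463), and 4 between 4 h and 8 h, where Hnf4a lost its calls on X57133mRNA_at (0.0697) and X57133mRNA_g_at (0.0517). With the floor at the 50th percentile 1 was called at 1 h, 4 at 4 h and 2 at 8 h, and over all probe sets 133 at 1 h, 374 at 4 h, 312 at 8 h and 401 between 1 h and 4 h. Without the filter 1 of them and 280 of all were called at 8 h. With an intensity trend and robust variance 4 were called at 4 h and 4 at 8 h, and over all probe sets 140, 380, 377 and 830 at 1, 4, 8 and 24 h, 428 between 1 h and 4 h, 683 between 4 h and 8 h and 1261 by the F test. Without both 1 h arrays, chosen after seeing the data, 1 and 91 of all were called at 8 h. With only the groups compared, 1 was called at 4 h, 1 at 24 h, 1 between 1 h and 4 h, 2 between 4 h and 8 h and 2 between 8 h and 24 h. Over all probe sets limma then called 0 at 1 h and 0 at 8 h (574 and 779 at an unadjusted p under 0.05), 69 at 4 h, 104 at 24 h, 89 between 1 h and 4 h, 70 between 4 h and 8 h and 167 between 8 h and 24 h; this fit has fewer arrays. The cause of the other differences was not tested.

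Leaving out 1 array at a time, all probe sets called ran from 29 to 75 at 1 h, 125 to 222 at 4 h, 43 to 107 at 8 h, 216 to 482 at 24 h, 113 to 236 between 1 h and 4 h, 182 to 383 between 4 h and 8 h, 254 to 572 between 8 h and 24 h and 446 to 642 by the F test. The 7 probe sets gave 0 to 0 at 1 h, 1 to 3 at 4 h, 0 to 1 at 8 h, 3 to 4 at 24 h, 1 to 2, 2 to 4 and 3 to 4 in the successive steps and 4 to 5 by the F test. No called value changed sign in any of these.

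Changes that were not called and that changed sign with 1 array left out were those of Foxa3 on AB017044exon_at at 1 h (-0.292 to 0.415, negative without 1 h array 2), and of Hnf4a on D10554_s_at at 4 h (-0.0559 to 0.171, negative without sham array 1). On X57133mRNA_at at 24 h Hnf4a ran from -0.201 to 0.0451, positive without sham array 2 (0.0292) or 24 h array 1. On X57133mRNA_g_at it ran from -0.164 to 0.385 at 4 h and from -0.0209 to 0.528 between 1 h and 4 h, negative without 4 h array 1.

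In the check of deviations, same-numbered arrays had low correlations that were all positive (0.0111 to 0.17). What the replicate numbers stand for was not tested. A replicate block left the calls against sham at 0, 2, 0 and 4 for the 7 probe sets and gave 72, 240, 156 and 583 over all. In the steps it gave 2, 5 and 5 of the 7 (287, 441 and 654 over all), and by the F test 6 (839 over all). Hnf4a on X57133mRNA_g_at lost its call between 4 h and 8 h (0.0617), and X57133mRNA_at gained 1 between 8 h and 24 h (0.0365) and 1 by the F test (0.0392).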

Other observations

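Among the 14 hepatocyte marker genes, 1 rose at 1 h and 2 rose at each later time, while 1 fell at 8 h. Arg1, the last enzyme of the urea cycle, rose 1.68-fold at 4 h and 1.95-fold at 24 h (limma adjusted p = 0.0494 and 0.0125). Fgb, a fibrinogen chain, rose 1.72-fold at 8 h and 1.74-fold at 24 h (0.0406 and 0.0171), and Hpx, the heme carrier hemopexin, rose 1.98-fold at 8 h (0.0364). The gene that fell at 8 h was Cyp2e1 (1.69-fold, 0.0452), an ethanol-oxidizing cytochrome P450 named after its value was seen. The calls at 8 h and that of Arg1 at 4 h ended on leaving out any 1 array. Those of Arg1 and Fgb at 24 h ended without either 24 h array (highest adjusted p 0.071 and 0.0949) and without sham array 1, and that of Fgb also without sham array 2. Alb, serum albumin, a known Foxa target also named after its values were seen, averaged 69430 at 1 h in burn livers and 71730 in sham livers (log2 change -0.03, adjusted p = 0.979). Of 6 Kupffer cell and phagocyte markers, 7 lymphocyte markers and 10 endothelial and stellate markers tested, limma called 0 at any time. At an unadjusted p under 0.05 the most at any time were 1, 3 and 3. The lymphocyte sum was 7070.9 and 7138.9 on the 1 h arrays, against 3950 and 4359.1 on the sham arrays. A2m, an acute phase protein gene among the Onecut1 targets, was 26.1-fold higher at 24 h (14610 in burn livers and 646.6 in sham livers, log2 change 4.70, limma adjusted p = 0.00407). Leaving out sham array 1 gave a change of 3.91 and leaving out sham array 2 one of 5.50, and the call ended with only the groups compared (0.0597). A2m was also named after its value was seen.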
